A study of Homo sapiens with 46 samples.

Results

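The 45 genes described here encode the proteins that license replication origins, start the replicative helicase, copy DNA and supply its building blocks. They were taken as a fixed list by name, chosen with earlier results of these data known. All 45 were found among 61228 genes of the HCT116 tables and among 30160 genes of the HEK293 tables. The list holds 6 subunits of the MCM2-7 helicase, 6 genes of helicase activation, 9 of origin recognition and licensing, 6 of the sliding clamp and its loader, 4 of DNA polymerase alpha and primase, 5 of polymerases delta and epsilon, 5 of Okazaki fragment maturation and single-stranded DNA binding, and 4 of nucleotide supply.

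RNA was sequenced from 46 libraries of human cell lines in which Ku, a heterodimer of Ku70 (gene XRCC6) and Ku80, also called Ku86 (gene XRCC5), was removed by 3 methods. HCT116, a colorectal carcinoma line, gave 40 poly-A enriched libraries, and HEK293, an embryonic kidney line, gave 6 ribosome-depleted libraries. The study's title places the work in the question of how Ku limits innate immune responses to RNA in human cells. In Ku80-AID HCT116 cells, Ku80 carries an auxin-inducible degron and was degraded with 100 µM indole-3-acetic acid (IAA) given together with 0.5 µg/mL doxycycline, so that "IAA" below always means both agents. Clones 1, 7 and 9 received DMSO for 2 days or IAA for 2, 4 or 6 days, or a CDK4/6 inhibitor alone or with IAA for 4 days. Clones 1 and 9 received DMSO or IAA for 1 day and the inhibitor alone or with IAA for 2 days. Clones 1, 13 and 15 of Ku80-AID, MAVS-/- cells, which lack the adaptor of RIG-I-like RNA sensors, received DMSO or IAA for 4 days. Ku86Flox/-:CreERT2 cells received 50 nM 4OHT, which lets Cre excise the remaining Ku86 allele, or ethanol (EtOH) for 4 days, as did Ku86Flox/- cells without Cre, with 2 libraries in each arm. HEK293 clones Sa11, SB and TI lack Ku70 and live on an ectopic copy that needs doxycycline, which was present at 1 µg/mL or withdrawn for 8 days. The genotype labels of these 6 libraries number the ectopic copy differently from one library to the next, whereas the protocol names Ku70 throughout.

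Several features limit these groups as models. Each clone descends from 1 cell, no DMSO library of MAVS-intact cells was collected at 4 or 6 days, and libraries at those times were therefore compared with DMSO at 2 days. The labels do not say that the 2 replicates of each Ku86Flox/- arm were separate cultures, so p-values there may measure technical spread. In bulk RNA, fewer cells in S phase and less RNA per cell cannot be told apart.

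DNA replication is licensed in G1, when the origin recognition complex, CDC6 and CDT1 load rings of MCM2-7 onto DNA, and geminin later blocks CDT1. CDC45 and GINS turn the loaded rings into active helicases at the entry into S phase, after which primase and the polymerases copy the DNA, held by the PCNA clamp. Many of these genes are transcribed under E2F factors, which RB holds inactive until CDK4/6 and CDK2 phosphorylate it, so their RNA is widely used as a readout of cell cycle entry.

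Promoter sequences are shown for 4 genes, because ORC2 was called in no comparison with IAA or 4OHT while MCM6, CDT1 and PCNA fell to different extents. RefSeq windows (GRCh38.p14, from 250 bases before to 50 after the start) matched 39 of the 45 genes. The letters TTTCCCGC, TTTGGCGC, TTTCGCGC and TTTGCCGC, which are forms of the E2F motif, were searched on both strands, and overlapping matches were kept. They occur in the windows of 19 of these 39 genes (48.7%) and of 3.99% of 27305 genes with a window. CCAAT, bound by NF-Y, occurs in 24 of 39 (61.5%) against 39.7%, and TTTGAA, the CHR element of late cell cycle genes, in 1 of 39 (2.56%) against 18.2%. The 200 bases before the start are given 5′ to 3′ on the gene's strand, with E2F matches on either strand in capitals. They come from MCM6 (chr2:135876444-135876643, minus strand), CDT1 (chr16:88803589-88803788, plus strand), PCNA (chr20:5126623-5126822, minus strand, the farther upstream of its RefSeq windows) and ORC2 (chr2:200963661-200963860, minus strand).

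MCM6: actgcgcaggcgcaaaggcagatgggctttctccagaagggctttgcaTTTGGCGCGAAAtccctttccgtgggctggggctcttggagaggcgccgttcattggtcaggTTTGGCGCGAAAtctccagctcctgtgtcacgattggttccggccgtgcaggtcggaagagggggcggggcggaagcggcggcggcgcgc

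CDT1: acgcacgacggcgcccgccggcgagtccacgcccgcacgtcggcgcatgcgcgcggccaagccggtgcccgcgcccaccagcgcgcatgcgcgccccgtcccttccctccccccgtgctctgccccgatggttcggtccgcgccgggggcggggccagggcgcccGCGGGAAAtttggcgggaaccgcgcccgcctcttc

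PCNA: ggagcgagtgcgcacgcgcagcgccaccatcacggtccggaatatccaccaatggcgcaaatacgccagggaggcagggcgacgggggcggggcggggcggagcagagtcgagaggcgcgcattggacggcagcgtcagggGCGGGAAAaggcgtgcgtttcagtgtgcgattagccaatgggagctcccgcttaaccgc

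ORC2: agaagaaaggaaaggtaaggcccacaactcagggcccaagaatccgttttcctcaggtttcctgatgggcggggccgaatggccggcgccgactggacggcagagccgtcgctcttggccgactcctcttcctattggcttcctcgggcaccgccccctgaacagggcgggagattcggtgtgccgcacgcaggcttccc

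In MCM6, each block of capitals is a pair of overlapping matches, 1 on each strand, and the first bases of the pairs lie 152 and 90 bases before the start. The match in CDT1 begins 35 bases before its start and that in PCNA 59 bases before. The other RefSeq window of PCNA, not printed here, holds none of these letters, and which start was used was not tested. ORC2 holds none of these letters in its window. After 4 days of IAA, 18 of the 19 genes with the letters fell, with a median log2 change of -1.42, and 17 of the 20 without them fell, with a median of -1.44. All 6 genes with no window fell, with a median of -1.22, where 14.9% of all genes were called lower. After Ku86 excision the medians were -1.74 with the letters, -1.76 without them and -1.76 with no window. A match is a description of the sequence and not evidence of binding.

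Totals of the deposited estimated counts ran from 9527918 to 45747408 per library in HCT116 and from 19568398 to 28483236 in HEK293. The lowest count of any member was 21, for POLE2 in a Ku86Flox/- library, and no member was at 0 anywhere. The colon epithelial markers EPCAM, KRT8, KRT18, CDH1 and CDX2 were expressed in every HCT116 library, but CDX1 was listed at 0 in all of them. KRT20 reached only 6.39 TPM there and VIL1 only 1.46 TPM. HEK293 libraries had VIM at 482 to 647 TPM, NEFL at 38.1 to 46.1 TPM and CDH2 at 32.5 to 46.8 TPM, but NEFM at 0.133 TPM at most. They also held EPCAM at 40.2 to 177 TPM, KRT8 at 32.7 to 141 TPM and KRT18 at 74.0 to 104 TPM. CDX2 was at 5.97 to 13.8 TPM in HEK293 and at 3.92 to 13.1 TPM in HCT116, so it does not separate the lines. Of the markers of other cell types, PTPRC did not exceed 0.125 TPM in HCT116 and 4.76 TPM in HEK293, whereas COL1A1 was at 4.58 to 24.5 TPM in HCT116; the part of these markers in the results was not tested. The targeted RNAs followed the labels where the method acts on RNA. XRCC5 was at 256 and 258 CPM (counts scaled to a common library size, with TMM factors) with EtOH and at 24.9 and 30.7 CPM with 4OHT in the Cre cells, and XRCC6 fell from 2269 to 3529 CPM with doxycycline to 339 to 605 CPM on doxycycline withdrawal. The degron acts on the protein, so XRCC5 RNA, which averaged 290 CPM with DMSO and 205 CPM after 4 days of IAA, checks nothing there. MAVS RNA stayed detectable in MAVS-/- clones at 108 to 184 CPM, against 313 to 341 CPM in DMSO-treated MAVS-intact clones at 2 days.

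The summed level of the 45 genes was lower with IAA than with DMSO, and lower with 4OHT than with EtOH in Cre cells. In MAVS-intact clones, 4 and 6 days of IAA were set against DMSO at 2 days. The sum averaged 5755 ± 458 CPM (SD, n = 3) with DMSO at 2 days, 2844 ± 463 after 2 days of IAA, 2247 ± 213 after 4 days and 2473 ± 215 after 6 days. The highest IAA library at these times (3120 CPM) lay below the lowest 2-day DMSO library (5228 CPM). At 1 day the sum was 7428 and 7518 CPM with DMSO and 6387 and 6407 CPM with IAA. In Cre cells the sum was 4711 and 4875 CPM with EtOH and 1705 and 1731 CPM with 4OHT. In MAVS-/- clones the sum ran from 4148 to 4765 CPM with DMSO and from 2982 to 3660 CPM with IAA, so these groups did not overlap either. The sum in HEK293 is dominated by 1 gene and is taken up with that line.

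**Figure D1:**
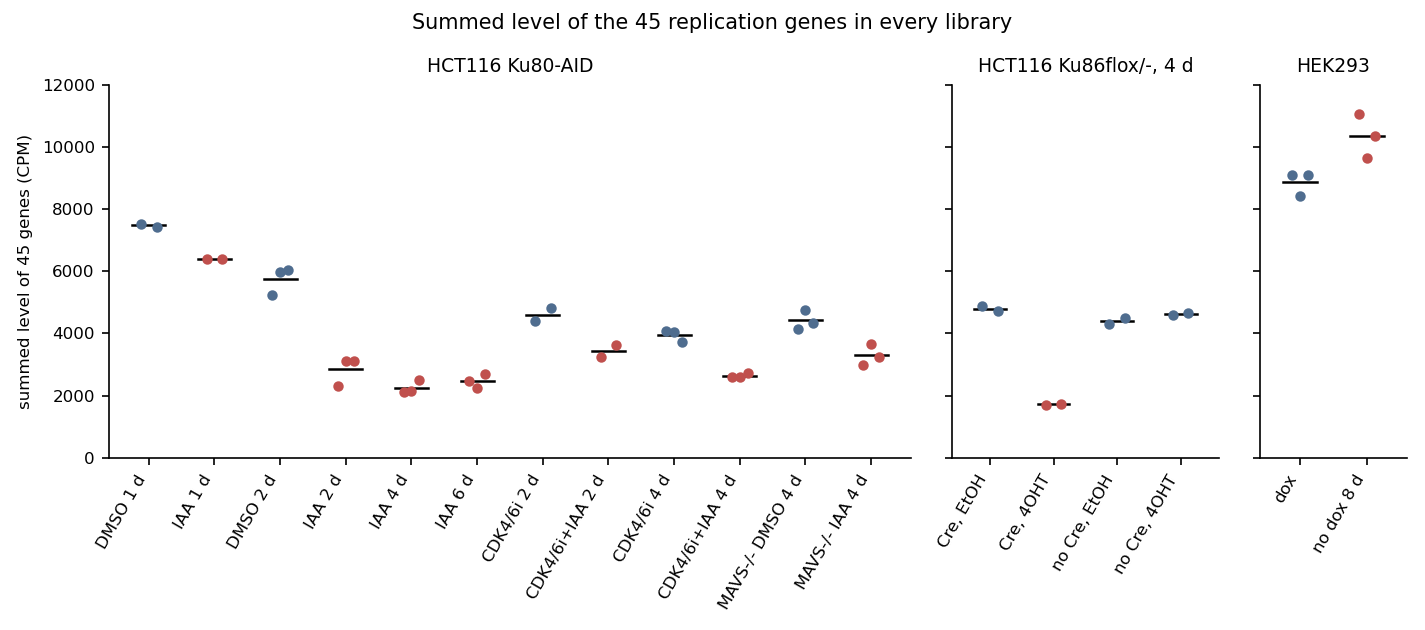
Summed level of the 45 genes in every library (y axis, CPM), with groups on the x axis, a point per library and a line at the group mean; blue points are controls and inhibitor alone, red points are Ku-depleted. The 3 panels were normalised separately; Cre cells with 4OHT sit at 1705 and 1731 CPM, the lowest of all groups.

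Nearly every member was lower after 2 days of IAA than with DMSO at 2 days, and 13 were lower again at 4 days. No library had IAA and doxycycline without the degron, Ku80 protein is not in these data, and controls at 4 and 6 days were those of 2 days, so Ku80 loss, the agents and time in culture cannot be told apart here. After 1 day of IAA no member passed edgeR's quasi-likelihood test at a Benjamini-Hochberg adjusted p of 0.05, where 0.185% of all genes were called in either direction. The median log2 change of the members was -0.22, against 0.01 over all genes, and 7 members had an unadjusted p under 0.05. DESeq2 and limma also called 0 members, whereas edgeR fitted on only those 4 libraries called 13, all lower, where that fit called 9.99% of all genes in either direction. At 2 days 43 of 45 members fell, with a median log2 change of -1.06, where 9.94% of all genes were called lower. At 4 days 41 fell, with a median of -1.42 and 14.9% of all genes lower. At 6 days 39 fell, with a median of -1.32 and 17.5% of all genes lower. No member rose at any of these times, and the median over all genes was 0.00, 0.04 and 0.00.

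All 6 subunits of the MCM2-7 helicase, the ring that unwinds DNA, fell at 2, 4 and 6 days. MCM7 was at 343, 412 and 360 CPM with DMSO in clones 1, 7 and 9, at 120, 174 and 174 CPM after 2 days of IAA, at 110, 93.5 and 120 CPM after 4 days and at 144, 127 and 155 CPM after 6 days. Every IAA library lay below every DMSO library. The log2 change of MCM7 at 4 days was -1.79 ± 0.13 (SE, edgeR adjusted p = 8.45e-11). MCM2 had the largest change of the 6 at 4 days, -1.83 ± 0.14, and MCM5 the smallest, -1.38.

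The genes that convert loaded MCM rings into active helicases fell as well, but the GINS subunits differed in extent. MCM10, a firing factor, was at 72.9, 86.2 and 91.6 CPM with DMSO and at 24.1, 29.4 and 32.6 CPM after 4 days of IAA, a log2 change of -1.54 ± 0.16 (edgeR adjusted p = 2.97e-08). CDC45, a core helicase cofactor, was at 39.1, 42.9 and 48.8 CPM with DMSO and at 14.96, 13.1 and 16.03 CPM after 4 days, a change of -1.57 ± 0.16. Both genes were lower in every IAA library than in any DMSO library. GINS3 changed least of this group at 4 days, by -0.76 ± 0.22 (edgeR adjusted p = 0.00838), and by -0.14 at 6 days, where it was not called. Without the 4-day library of clone 7 the GINS3 change was -0.52 and the adjusted p 0.0681.

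Among the origin recognition and licensing genes, ORC1, ORC6, CDC6, CDT1 and GMNN fell at all 3 times, while ORC2 and ORC4 were called at none. ORC1, the subunit that is made and destroyed in each cell cycle, was at 50.3, 55.4 and 62.1 CPM with DMSO, at 15.8, 23.9 and 22.5 CPM after 2 days and at 11.9, 13.1 and 21.1 CPM after 4 days. Its libraries did not overlap between IAA and DMSO, and the 4-day log2 change was -1.88 ± 0.21 (edgeR adjusted p = 9.28e-08). ORC2, a subunit of the stable core of the complex, was at 67.3, 71.1 and 64.1 CPM with DMSO, at 64.6, 60.6 and 61.2 CPM after 2 days, at 44.3, 73.6 and 77.1 CPM after 4 days and at 72.2, 65.5 and 86.6 CPM after 6 days. The 4-day groups of ORC2 overlapped, with clone 1 lowest, and the log2 change was -0.06 ± 0.14 (edgeR adjusted p = 0.804). ORC3, ORC4 and ORC5 changed at 4 days by -0.48, -0.19 and -0.39 and were not called. Without the 4-day library of clone 7, ORC3 (-0.82, edgeR adjusted p = 0.00191) and ORC5 (-0.54, adjusted p = 0.0115) were called, and without that of clone 9 ORC4 was (-0.38, adjusted p = 0.0493).

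CDC6, the loader of MCM rings, went from 117, 138 and 130 CPM with DMSO to 47.1, 62.5 and 70.9 CPM after 2 days and 56.1, 48.2 and 54.0 CPM after 4 days of IAA. At 6 days CDC6 was at 93.5, 65.2 and 94.9 CPM, higher than at 4 days in every clone and lower than with DMSO in every clone. CDT1, its partner in loading, was at 97.5, 116 and 131 CPM with DMSO and at 66.6, 38.2 and 38.4 CPM after 4 days, a log2 change of -1.26 ± 0.21 (edgeR adjusted p = 3.99e-05), with clone 1 the highest of the IAA libraries. GMNN, which encodes the CDT1 inhibitor geminin, fell by 1.72 on the log2 scale at 4 days.

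The clamp PCNA, which tethers polymerases to DNA, was at 194, 224 and 239 CPM with DMSO and at 81.3, 84.1 and 90.6 CPM after 4 days of IAA, with no overlap. Its log2 change was -1.36 ± 0.11 (edgeR adjusted p = 2.92e-10). Of the clamp loader genes, RFC4 changed most at 4 days (-1.65) and RFC1, the large subunit, least (-0.37 ± 0.12, edgeR adjusted p = 0.0175). The RFC1 call was lost without the 4-day library of clone 1, where the change was -0.21, and without either of the DMSO libraries of clones 1 and 9. RFC1 was not called at 6 days.

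PRIM1, the catalytic subunit of primase, showed the largest change of all 45 genes at 4 and 6 days. It was at 45.4, 43.5 and 53.6 CPM with DMSO, at 17.9, 22.8 and 24.6 CPM after 2 days, at 7.18, 8.73 and 11.7 CPM after 4 days and at 9.03, 9.22 and 14.2 CPM after 6 days. The 4-day libraries lay below the 2-day libraries as well as below DMSO, and the log2 change against DMSO was -2.38 ± 0.20 (edgeR adjusted p = 7.24e-10). POLA1, the catalytic subunit of polymerase alpha, changed least of its group, by -1.02 ± 0.17, from 86.1, 88.0 and 74.6 CPM to 25.4, 48.7 and 49.3 CPM. POLA2 and PRIM2, the regulatory subunits, fell by 1.55 and 1.49.

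POLE2, a subunit of the leading-strand polymerase epsilon, went from 31.9, 29.9 and 29.7 CPM with DMSO to 9.14, 16.1 and 9.71 CPM after 4 days, without overlap, a log2 change of -1.39 ± 0.21. POLD1, the catalytic subunit of polymerase delta, fell by 1.42 and POLD2 by 0.62 at 4 days, and POLD2 was not called at 6 days (-0.17). FEN1, the flap nuclease of Okazaki fragments, was at 92.7, 104 and 117 CPM with DMSO and at 33.4, 27.3 and 35.7 CPM after 4 days, a change of -1.70 ± 0.15. The subunits of RPA, the single-stranded DNA binding complex, moved unequally, RPA2 by -0.70, RPA1 by -0.87 and RPA3 by -1.42.

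The genes of nucleotide supply had the lowest group median at 4 days, -1.85. TK1, thymidine kinase, was at 196, 243 and 235 CPM with DMSO, at 83.4, 128 and 116 CPM after 2 days and at 61.1, 41.3 and 56.7 CPM after 4 days. These 3 sets of libraries did not overlap, and the 4-day log2 change was -2.08 ± 0.14 (edgeR adjusted p = 2.44e-11). RRM2, the cell cycle regulated subunit of ribonucleotide reductase, went from 445, 558 and 626 CPM to 128, 124 and 180 CPM at 4 days, a change of -1.92 ± 0.20. TYMS, thymidylate synthase, went from 198, 225 and 235 CPM to 59.2, 45.1 and 87.8 CPM, a change of -1.78 ± 0.17. RRM1, the large reductase subunit, fell by 1.46.

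**Figure D2:**
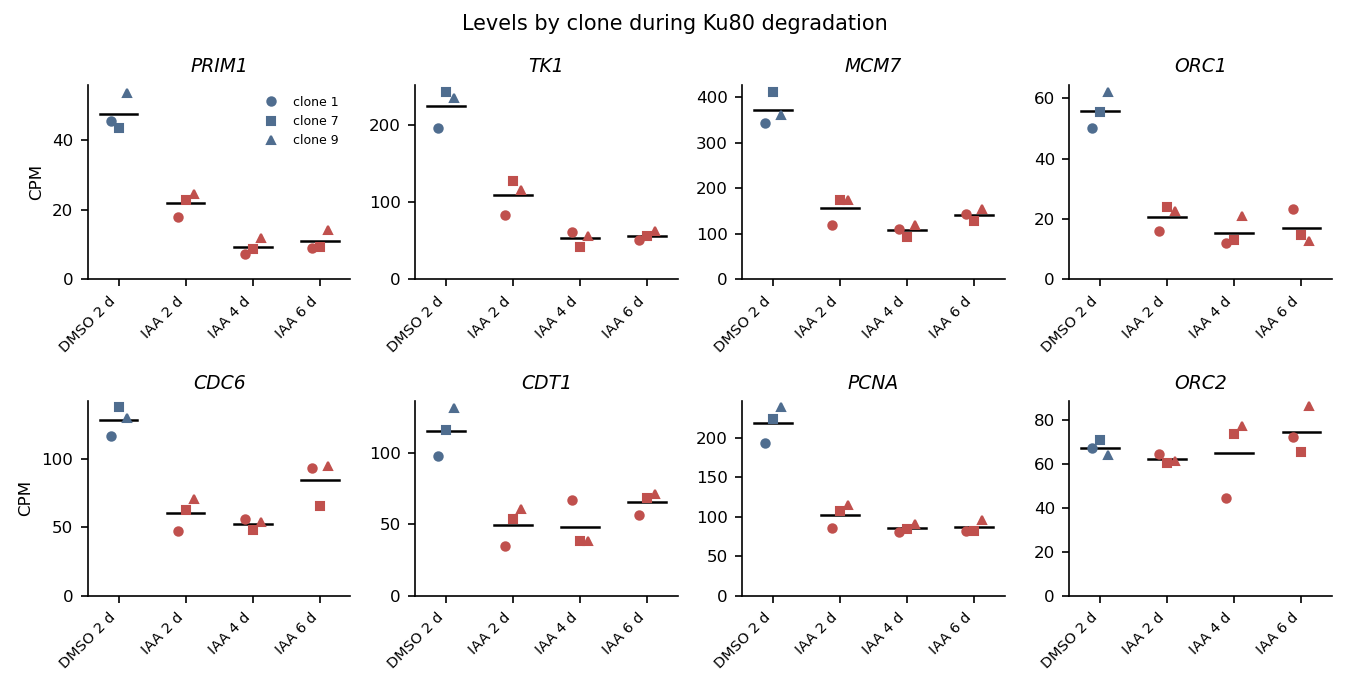
Level of 8 genes (y axis, CPM, from 0) with DMSO at 2 days (blue) and after 2, 4 and 6 days of IAA (red), with 1 marker per clone and a line at each mean. PRIM1 and TK1 step down again between 2 and 4 days, CDC6 is higher at 6 than at 4 days in each clone, and the ORC2 groups overlap.

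Between 2 and 4 days of IAA a further 13 members fell, where 3.44% of all genes were called lower, and the median log2 difference was -0.29. PRIM1 (-1.25 ± 0.19, edgeR adjusted p = 0.000155), TK1 (-1.04 ± 0.14, adjusted p = 1.98e-05), RPA3 (-0.91), RRM2 (-0.78) and GMNN (-0.74) changed most. The count dropped to 5, 6 and 7 without the 2-day library of clone 7, the 2-day library of clone 9 and the 4-day library of clone 7, and to 2 when only those 6 libraries were fitted. Between 4 and 6 days 5 members rose, where 5.36% of all genes were called higher, and 1 fell, where 7.11% were called lower. Those that rose were CDC6 (0.68 ± 0.16, edgeR adjusted p = 0.00764), ORC5 (0.53), RFC3 (0.47), POLD2 (0.45) and MCM7 (0.40), and RFC5 fell by 0.37, with overlapping libraries. Without the 6-day library of clone 1 a single member was called, without that of clone 9 there were 2, and no member was called when only those 6 libraries were fitted.

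**Figure D3:**
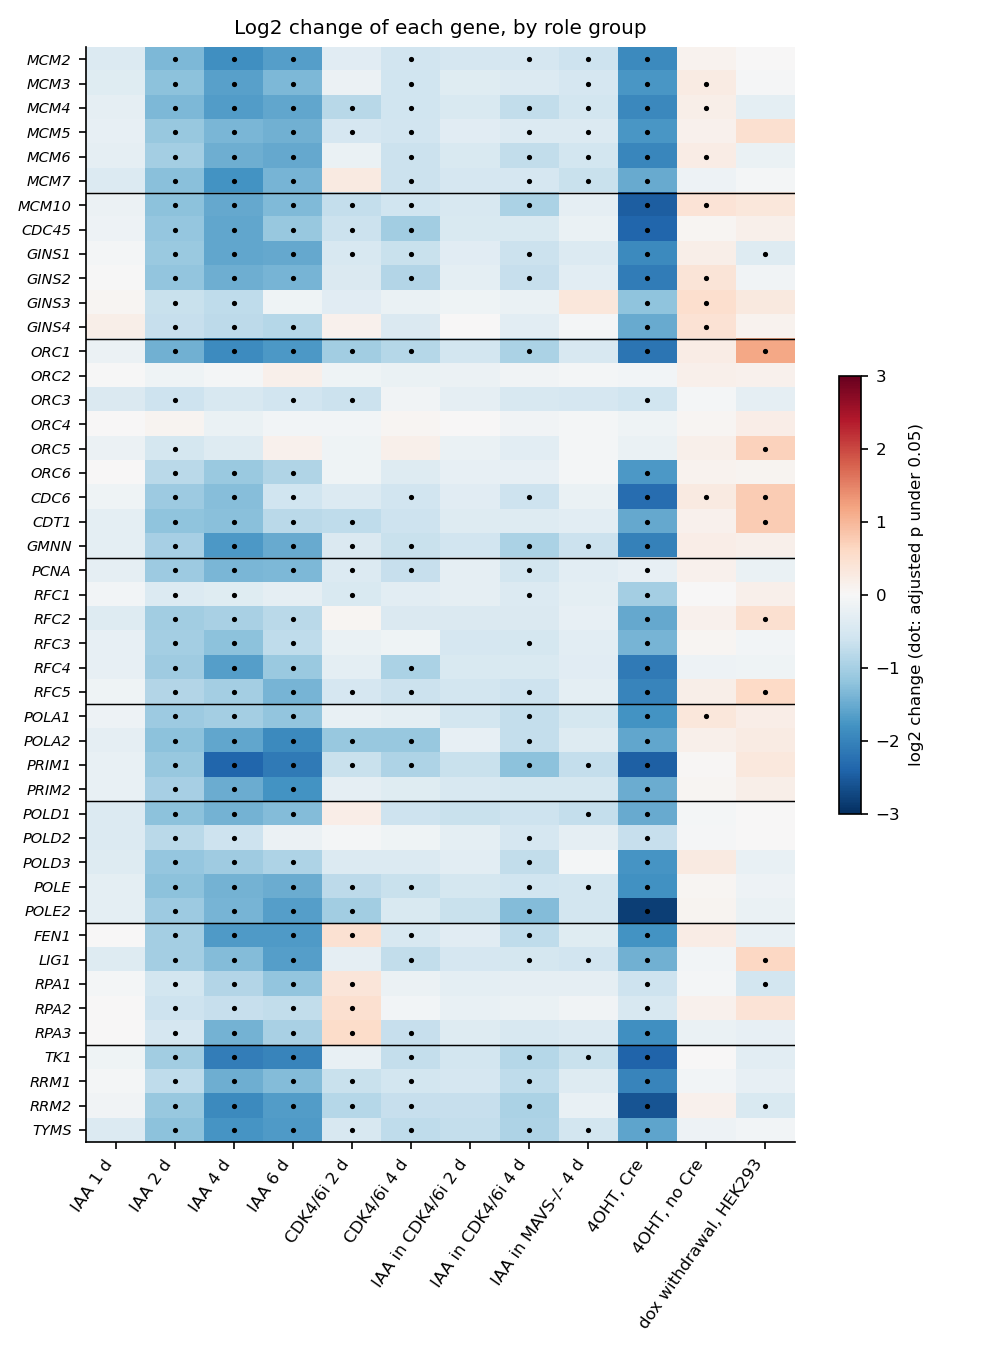
Log2 change of each of the 45 genes (rows, grouped by role from MCM2-7 at the top to nucleotide supply at the bottom) in 12 comparisons (columns); blue is lower, red is higher, and a dot marks an edgeR adjusted p under 0.05. The columns of IAA at 2, 4 and 6 days and of 4OHT with Cre are almost wholly blue, with ORC2 and ORC4 pale, and the columns of 4OHT without Cre and of HEK293 are not.

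With a CDK4/6 inhibitor, an agent that holds cells in G1, part of the list was lower without IAA, and the 2-day result depended on the control used. At 2 days, against DMSO at 2 days, 19 members fell, where 13.6% of all genes were called lower, and 4 rose, where 20.8% were called higher, with a median log2 change of -0.33. The 4 that rose were FEN1 (0.45), RPA1 (0.37), RPA2 (0.49) and RPA3 (0.54), and the largest falls were in POLA2 (-1.13 ± 0.17, edgeR adjusted p = 1.56e-05), ORC1 (-1.04), POLE2 (-1.04), RRM2 (-0.86) and MCM4 (-0.83). Against DMSO at 1 day, 25 members fell and 0 rose, with a median of -0.73, where 1.68% of all genes were called lower, and FEN1 then changed by -0.74. The DMSO groups themselves differed in a comparison added after the data were seen: 19 members were lower at 2 days than at 1 day, where 22.1% of all genes were called lower. The 2-day inhibitor libraries carry times in hours, as do the 1-day ones, but the labels name no batch, so time and any difference between these sets cannot be told apart. Limma on TPM called 39 members lower and 0 higher, and it moved the median of all genes from 0.05 to -0.355. The count of 23 dropped to 10 without the inhibitor library of clone 1 and to 15 without that of clone 9. Members not called against DMSO at 2 days were MCM2, MCM3, MCM6, MCM7, GINS2, GINS3, GINS4, ORC2, ORC4, ORC5, ORC6, CDC6, RFC2, RFC3, RFC4, POLA1, PRIM2, POLD1, POLD2, POLD3, LIG1 and TK1.

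After 4 days of the inhibitor alone 26 members fell and 0 rose, with a median log2 change of -0.59, where 3.84% of all genes were called lower. All 6 MCM subunits fell, by 0.58 to 0.65. CDC45 went from 39.1, 42.9 and 48.8 CPM with DMSO to 21.6, 23.7 and 18.2 CPM, a log2 change of -1.04 ± 0.16 (edgeR adjusted p = 0.000135), and POLA2 changed by -1.13 ± 0.15, RFC4 by -0.94, PRIM1 by -0.93 and GINS2 by -0.87. The 19 members not called were GINS3, GINS4, ORC2 to ORC6, CDT1, RFC1, RFC2, RFC3, POLA1, PRIM2, POLD1, POLD2, POLD3, POLE2, RPA1 and RPA2. The count dropped to 15 without the inhibitor library of clone 9 and to 16 without the DMSO library of clone 9.

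With IAA added to the inhibitor, 28 members were lower at 4 days than with the inhibitor alone. At 2 days no member was called in edgeR, where 0.413% of all genes were called in either direction, although 27 had an unadjusted p under 0.05 and the median log2 change was -0.43. DESeq2 called 7 lower and limma 0, edgeR without the filter 2, edgeR with the replicate block 2, and edgeR on only those 4 libraries 11, where that last fit called 3.62% of all genes. Over all genes, DESeq2 called 136 lower, limma 5, edgeR without the filter 113, edgeR with the replicate block 61 and edgeR on only those 4 libraries 263. At 4 days 28 members fell and 0 rose, with a median of -0.53, where 5.1% of all genes were called lower. POLE2 was at 27.7, 20.4 and 18.4 CPM with the inhibitor and at 7.89, 10.6 and 8.04 CPM with the inhibitor and IAA, a log2 change of -1.31 ± 0.21 (edgeR adjusted p = 0.000164). PRIM1 was at 26.1, 25.9 and 23.0 CPM and at 10.6, 9.19 and 12.3 CPM, a change of -1.23 ± 0.19, and MCM10 (-0.96), ORC1 (-0.96) and GMNN (-0.95) followed. The libraries of POLE2 and of PRIM1 did not overlap. Not called were MCM3, CDC45, GINS3, GINS4, ORC2 to ORC6, CDT1, RFC2, RFC4, PRIM2, POLD1, RPA1, RPA2 and RPA3. Limma on TPM called 14 members, and MCM10 (-0.58) was then not called. DESeq2 called 33 lower, among them MCM3, CDC45, PRIM2, POLD1 and RPA3. The replicate block gave 31 and a fit of only the compared groups 32. Over all genes, limma called 311 lower, DESeq2 1313, the block 1206 and the last fit 1347, against 962 in the main fit.

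The response to 4 days of IAA was smaller with the inhibitor than without it for 22 members and larger for none, by a test of the difference between the responses, where 2.19% of all genes were called higher. The median difference was 0.78 on the log2 scale, against -0.05 over all genes. All 6 MCM subunits were among the 22, with 4 of 5 genes of Okazaki maturation and RPA, 3 of 4 of polymerase alpha and primase, 3 of 4 of nucleotide supply, 2 of 6 of helicase activation, 2 of 6 of the clamp and loader, 1 of 5 of polymerases delta and epsilon and 1 of 9 of origin recognition. MCM2 was at 202, 229 and 242 CPM with DMSO and 68.1, 57.3 and 64.1 CPM with IAA, against 152, 149 and 148 CPM with the inhibitor and 107, 106 and 102 CPM with both. Its responses differed by 1.32 ± 0.19 (edgeR adjusted p = 0.000295), and those of MCM7 and MCM3 by 1.28 ± 0.18 and 1.22 ± 0.20. POLE2 differed by 0.08 and was not called. The control without the inhibitor was collected at 2 days and that with it at 4 days, so the difference also carries this gap. The count dropped to 12, 13 and 14 without the DMSO library of clone 9, the 4-day inhibitor library of clone 9 and the DMSO library of clone 7. At 2 days the responses differed for no member, where 0% of all genes were called in edgeR, with 26 members at an unadjusted p under 0.05, 3 called by DESeq2 and 0 by limma. Over all genes, DESeq2 called 19 and limma 1 in either direction.

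Comparing both IAA groups at 4 days directly, 10 members were higher with the inhibitor than without it, where 5.9% of all genes were called higher, and 0 were lower. They were MCM2 (0.74 ± 0.14, edgeR adjusted p = 0.000805), MCM7 (0.64), MCM3 (0.62), PRIM2 (0.60), RFC3 (0.56), TK1, FEN1, RPA1, RPA2 and MCM5, with a median log2 difference of 0.15 over all 45. The count dropped to 5 without the combined-treatment library of clone 1, to 6 without that of clone 9 and to 3 when only those 6 libraries were fitted. Members were called lower without the 4-day IAA library of clone 1 (3, beside 8 higher), with DESeq2 (1, beside 10) and with limma on TPM (1, beside 6). Over all genes, 1925, 1643 and 1062 were called lower in those settings, against 1383 in the main fit. With limma on TPM the difference in MCM2 was 0.22 and not called. The call of PRIM2 was lost without the clone 1 library of either group (0.65 and 0.44) or the combined-treatment library of clone 9 (0.48), and that of RFC3 without the clone 9 library of either group (0.50 and 0.51). Neither was called when only those 6 libraries were fitted.

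In MAVS-/- clones, fewer members were called lower after 4 days of IAA than in MAVS-intact clones. There, 13 members fell and 0 rose, with a median log2 change of -0.37, where 3.15% of all genes were called lower. They were all 6 MCM subunits, GMNN, PRIM1, POLD1, POLE, LIG1, TK1 and TYMS. TK1 went from 238, 245 and 253 CPM with DMSO in clones 1, 13 and 15 to 147, 163 and 153 CPM with IAA, without overlap, a log2 change of -0.67 ± 0.13 (edgeR adjusted p = 0.0022). RRM2 went from 281, 303 and 284 CPM to 209, 273 and 266 CPM, a change of -0.22 ± 0.19 that was not called. POLD1 changed most, by -0.72 ± 0.21 (edgeR adjusted p = 0.0302), a call lost without any 1 of the 6 libraries. PRIM1 lost its call without the IAA library of clone 1 or 13 or the DMSO library of clone 15 (edgeR adjusted p from 0.0525 to 0.0821). GMNN lost its call without the DMSO library of clone 13 (edgeR adjusted p = 0.0545). Limma on TPM did not call POLD1, PRIM1 or GMNN. The count dropped to 6 when clone 1 or clone 15 lost its IAA sample and when clone 13 lost its DMSO sample. With clone 15 lacking its DMSO sample it was 8, and limma on TPM called 4.

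By a test of the difference between the responses, 32 members responded less in MAVS-/- than in MAVS-intact clones and none more, where 2.46% of all genes were called higher, and the median difference was 1.01 on the log2 scale against -0.05 over all genes. These were all 6 MCM subunits, all 5 genes of Okazaki maturation and RPA, all 4 of nucleotide supply, 5 of 6 of helicase activation, 4 of 6 of the clamp and loader, 3 of 4 of polymerase alpha and primase, 3 of 9 of origin recognition and 2 of 5 of polymerases delta and epsilon. RRM2 differed by 1.70 ± 0.27 (edgeR adjusted p = 0.000363), PRIM1 by 1.67 ± 0.27 (adjusted p = 0.000342) and TK1 by 1.42 ± 0.19 (adjusted p = 3.69e-05). PRIM1 was at 26.5, 29.1 and 31.3 CPM with DMSO and at 15.2, 16.8 and 21.1 CPM with IAA in MAVS-/- clones. The members not called were GINS4, ORC2 to ORC6, CDT1, RFC1, RFC2, POLA1, POLD1, POLD2 and POLE2. With limma on TPM the count was 26 and PRIM1 (1.12) was not called.

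The genotypes also differed without IAA. With DMSO, 27 members were lower in MAVS-/- clones at 4 days than in MAVS-intact clones at 2 days, where 21.6% of all genes were called lower, and 2 were higher, where 24.5% were, with a median log2 difference of -0.56. POLE2 (-1.47), RFC3 (-1.33), GINS1 (-1.14), MCM10 (-1.06) and ORC3 (-1.03) differed most, and POLD1 (0.74) and LIG1 (0.30) were the higher ones. The LIG1 call was lost without any 1 of the 6 libraries, the POLD1 call with limma on TPM (0.26) and the ORC3 call against DMSO at 1 day (-0.55). Those not called were MCM2, MCM3, MCM7, GINS2, GINS4, CDT1, RFC2, RFC4, POLD2, POLE, FEN1, RPA1, RPA2, RPA3, TK1 and TYMS. Against DMSO at 1 day, 39 members were lower and 0 higher, where 19.6% of all genes were called lower. Genotype, clone and time with DMSO cannot be told apart in these comparisons, and the difference between the responses to IAA carries the same gaps. Against DMSO at 1 day the directions of POLD1 (-0.008) and LIG1 (-0.060) turned.

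**Figure D4:**
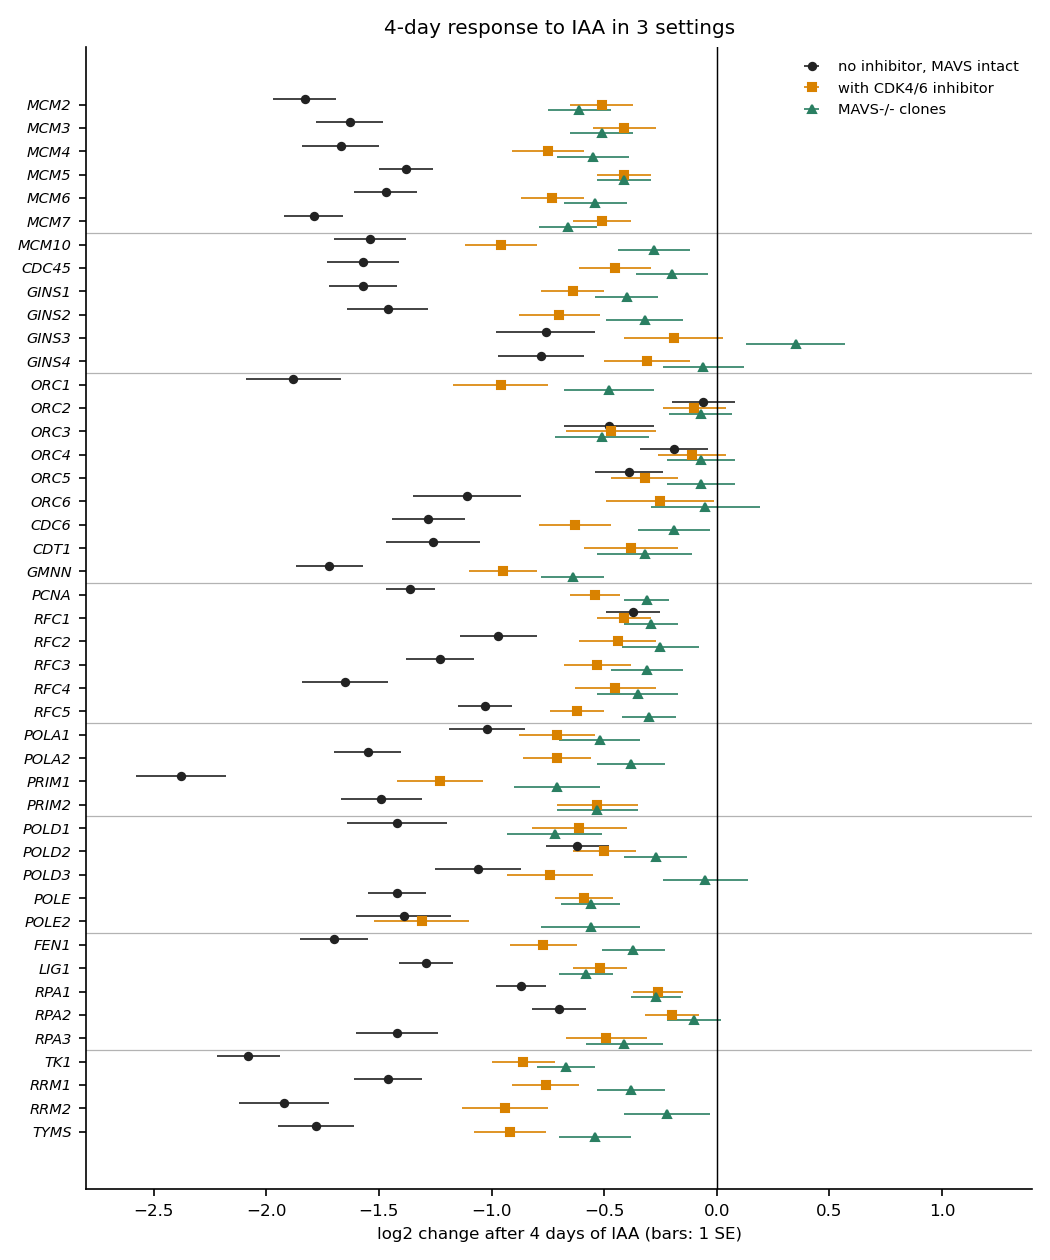
Log2 change of each of the 45 genes after 4 days of IAA (x axis, bars of 1 SE) in MAVS-intact clones without the inhibitor (black circles), with the CDK4/6 inhibitor (orange squares) and in MAVS-/- clones (green triangles). The black circles lie farthest left for most genes, at a median of -1.42 against -0.53 and -0.37, and the markers of ORC2 and RFC1 lie close together.

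Excision of Ku86 by Cre was followed by falls in nearly all members, small for the clamp PCNA. No library had active Cre with Ku86 kept, so Ku86 loss and Cre activity cannot be told apart here. After 4 days of 4OHT 42 members fell and 0 rose, with a median log2 change of -1.74, where 27.5% of all genes were called lower. ORC2 (-0.09), ORC4 (-0.14) and ORC5 (-0.19) were not called. POLE2 was at 13.9 and 16.2 CPM with EtOH and at 2.55 and 1.62 CPM with 4OHT, a change of -2.83 ± 0.18 (edgeR adjusted p = 2.84e-08). RRM2 was at 360 and 368 CPM and at 57.8 and 62.2 CPM, a change of -2.60 ± 0.05 (edgeR adjusted p = 1.85e-12). MCM10 (-2.47 ± 0.09), PRIM1 (-2.44 ± 0.13) and TK1 (-2.40 ± 0.10) came next, and the libraries of these genes did not overlap between EtOH and 4OHT.

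By role, all 6 MCM subunits fell, by 1.51 (MCM7) to 1.96 (MCM6), and the helicase activation genes by up to 2.47 (MCM10), least for GINS3. CDC45 was at 37.7 and 32.9 CPM with EtOH and at 5.96 and 7.64 CPM with 4OHT. CDC6 went from 93.7 and 95.1 CPM to 19.7 and 19.2 CPM, a log2 change of -2.28 ± 0.07, and CDT1 from 118 and 113 CPM to 39.7 and 39.5 CPM. ORC1 went from 33.1 and 34.0 CPM to 6.81 and 8.03 CPM, a change of -2.18 ± 0.09, while ORC2 was at 45.4 and 44.2 CPM and at 43.8 and 40.4 CPM. POLA1 was at 45.4 and 42.7 CPM and at 12.7 and 12.8 CPM, FEN1 at 141 and 136 CPM and at 37.7 and 42.2 CPM, and TYMS at 200 and 180 CPM and at 64.1 and 62.3 CPM. RPA1 (-0.61), RPA2 (-0.48) and POLD2 (-0.68) had small changes beside RPA3 (-1.85) and POLD1 (-1.51) of the same complexes.

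PCNA was at 210 and 200 CPM with EtOH and at 176 and 171 CPM with 4OHT in Cre cells. Its log2 change was -0.24 ± 0.05 (edgeR adjusted p = 0.00104), the smallest of the clamp group, where the loader genes fell by 1.01 (RFC1) to 2.12 (RFC4). In the degron cells, PCNA had changed by -1.36 at 4 days. The degron and Cre libraries were fitted separately, and the difference between these PCNA changes was not tested.

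Without Cre, no member was called lower with 4OHT in the edgeR fit of all 8 libraries. There 9 rose and 0 fell, with a median log2 change of 0.12, where 7.26% of all genes were called higher: GINS3 (0.50), GINS4 (0.43), MCM10 (0.42 ± 0.07, edgeR adjusted p = 0.00227), GINS2 (0.39), POLA1 (0.35), CDC6, MCM3, MCM6 and MCM4. MCM10 was at 44.3 and 42.1 CPM with EtOH and at 56.6 and 59.4 CPM with 4OHT. The count dropped to 2 without the first 4OHT library and to 4 with limma on TPM. Members were called lower with no count filter (1), with DESeq2 (1) and without the first EtOH library (2). Over all genes, those settings called 1480, 1182 and 1545 lower, against 1077 in the main fit. They held 33905, 61228 and 17360 genes against 16726, so their shares of all genes are not comparable. The response to 4OHT was lower with Cre than without it for 43 members and higher for none, where 22.4% of all genes were called lower, with a median difference of -1.88. POLE2 (-2.93 ± 0.23, edgeR adjusted p = 4.09e-07), MCM10 (-2.89 ± 0.12) and RRM2 (-2.72 ± 0.07) differed most, PCNA differed by -0.36 ± 0.07, and ORC2 (-0.25) and ORC4 (-0.20) were not called.

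In HEK293 cells, 35 members had no called change after 8 days without doxycycline in the fit that does not pair the clones. No library lacked doxycycline with Ku70 kept, so Ku70 loss and doxycycline removal cannot be told apart. Of the 45, 7 rose, where 11.1% of all genes were called higher, and 3 fell, where 10.9% were called lower; as shares of 45 genes, both counts are close to or below these backgrounds. The median log2 change was 0.01. ORC1 was at 42.1, 33.4 and 42.9 CPM with doxycycline in clones Sa11, SB and TI and at 96.3, 64.2 and 107 CPM without it, a change of 1.17 ± 0.19 (edgeR adjusted p = 0.00406). CDC6 was at 148, 160 and 152 CPM and at 256, 224 and 304 CPM, a change of 0.77 ± 0.14 (adjusted p = 0.00599). CDT1 was at 78.2, 76.2 and 64.5 CPM and at 165, 104 and 99.4 CPM, a change of 0.75 ± 0.19 (adjusted p = 0.0238). For these 3 genes every library without doxycycline was above every library with it, and without doxycycline clone SB was the lowest for ORC1 and CDC6.

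The other members that rose in HEK293 were ORC5 (0.68), LIG1 (0.63), RFC5 (0.59) and RFC2 (0.49), and those that fell were RPA1 (-0.54), RRM2 (-0.45) and GINS1 (-0.38). RRM2 was at 206, 206 and 192 CPM with doxycycline and at 130, 169 and 143 CPM without it, but on the TPM scale with limma its change was 0.095 and not called. None of the 6 MCM subunits was called, with changes from -0.29 to 0.47, and MCM7 was at 595, 558 and 577 CPM and at 569, 542 and 534 CPM, with overlap. ORC2 was at 149, 99.7 and 162 CPM and at 173, 96.2 and 182 CPM, PCNA at 437, 407 and 392 CPM and at 322, 371 and 373 CPM, and TK1 at 26.7, 29.8 and 23.0 CPM and at 24.2, 23.6 and 16.2 CPM, all not called. ORC1 and CDC6 were called under every alternative run for this comparison. CDT1 lost its call without either Sa11 library or the doxycycline library of SB or TI (edgeR adjusted p from 0.0524 to 0.0989), and ORC5 without any of these or the other TI library (0.0906 to 0.129). LIG1, RPA1, RRM2 and GINS1 also lost their calls without single libraries, among them each library of Sa11. With the clones paired by the replicate block, 11 members rose and 4 fell, where 34.8% of all genes were called in either direction, and MCM10 was then called (0.34, edgeR adjusted p = 0.03). The count of 10 dropped to 2 without either library of clone Sa11 or the doxycycline library of clone TI, to 4 without the doxycycline library of clone SB and to 6 without the other library of clone TI.

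LIG1, the ligase that seals Okazaki fragments, made up 27.4% of the summed CPM of the 45 genes in HEK293 with doxycycline and 36.2% without it. It was at 2524, 2188 and 2566 CPM and at 4103, 3755 and 3373 CPM, against 84.1, 97.6 and 96.6 CPM in HCT116 degron cells with DMSO at 2 days, a level set in another table by another library method. How reads shared with similar sequences were assigned is not given, so the level, share and rank of LIG1 in HEK293 are uncertain. The sum over all 45 genes averaged 8859 CPM with doxycycline and 10353 CPM without it, and the sum without LIG1 averaged 6433 ± 179 and 6609 ± 618 CPM (SD, n = 3), which overlapped.

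**Figure D5:**
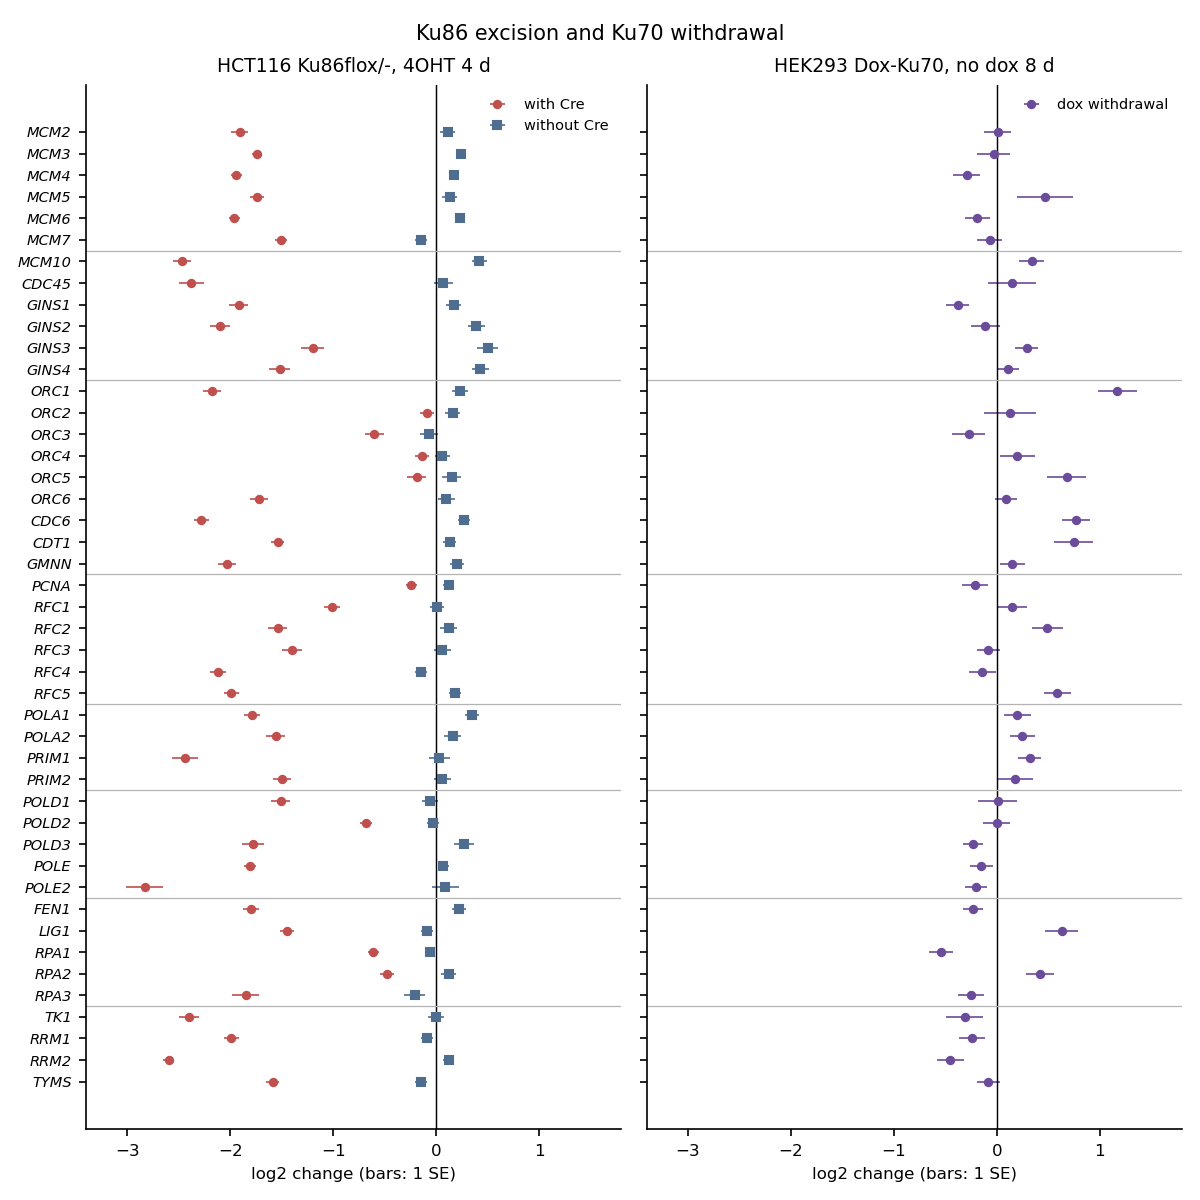
Log2 change of each of the 45 genes (x axis, bars of 1 SE) after 4OHT in Ku86Flox/- cells with Cre (red circles) and without Cre (blue squares), and after doxycycline withdrawal in HEK293 (purple circles). The red circles lie left of -1 for most genes, with PCNA at -0.24 and ORC2 at -0.09, and the purple circles scatter around 0 with ORC1 at 1.17.

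Levels per transcript length, in TPM, rank the members in control cells. With DMSO at 2 days RRM2 was the highest member (469 ± 69.0 TPM, SD, n = 3), followed by MCM4 (404 ± 63.9) and PCNA (380 ± 36.7), and GINS3 was the lowest (18.3 ± 2.08). In HEK293 with doxycycline LIG1 was the highest (787 ± 25.5 TPM) and ORC1 the lowest (17.2 ± 1.46).

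Another 41 genes of firing, fork accessory work, chromatin assembly and licensing control were described by the same fits. After 4 days of IAA 32 fell (78.0%), where 14.9% of all genes were called lower, with a median log2 change of -1.03. Another 5 rose (12.2%), a share below the 17.9% of all genes called higher. Among the most changed were TICRR (-1.86) and CDC7 (-1.84) of firing, POLD4 (1.86) of accessory synthesis, and CCNA2 (-2.22) and SKP2 (-1.77) of licensing control. The 5 that rose, named after their values were seen, were POLD4, the small polymerase delta subunit, RRM2B, the p53-induced reductase subunit, TK2, SAMHD1, a dNTP hydrolase, and CDKN1A, the CDK inhibitor p21 (1.23). With Cre 33 fell (80.5%), where 27.5% of all genes were called lower, and 5 rose (12.2%), where 26.45% were called higher. The median was -1.72, and CLSPN (-2.46), CDC7 (-2.41), ASF1B (-2.38), DSCC1 (-2.25), CCNA2 (-2.75) and E2F1 (-2.41) changed most in their lists. With Cre POLD4 (1.14), RRM2B (1.04), TK2 (0.68), SAMHD1 (0.39) and CDKN1A (1.73) rose. Without Cre, 10 of the 41 rose with 4OHT (24.4%), where 7.26% of all genes were called higher, and 4 fell (9.76%), where 6.44% were called lower. The response to 4OHT was higher with Cre than without it for 3 of the 41 (7.32%), where 18.8% of all genes were called higher. It was lower for 34 (82.9%), where 22.4% were called lower. Not every rise named with Cre was therefore shown to exceed the response without it. In HEK293 4 rose (9.76%), where 11.1% of all genes were called higher, and 5 fell (12.2%), where 10.9% were called lower. Both shares are close to these backgrounds. The median was -0.01, and TIPIN (0.65), DBF4 (0.58) and POLE3 (0.83) were among the most changed. E2F1 (-0.39) and CCNE2 (-0.32) of licensing control were not called.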

How the data were processed

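RNA-seq of 46 libraries in 18 groups was deposited as gene tables. The authors deposited estimated counts per gene and, beside them, TPM, which scale by transcript length. Per the submitters' processing notes, Salmon 1.10.2, kallisto 0.50.0, DESeq2 (no version) and GRCh38 were used, in roles those notes do not give. Which gene models were used, whether counting used strand, and how reads shared by similar genes were assigned is not given in these sources.

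Estimated counts were rounded and fitted with edgeR 4.0.16 in R 4.3.3 (filterByExpr, TMM, quasi-likelihood test, Benjamini-Hochberg adjustment over all genes tested, threshold 0.05). The 3 fits were the degron libraries (32 libraries, 12 groups, 18877 genes), the Ku86Flox/- libraries (8, 4, 16726) and HEK293 (6, 2, 15549), so that groups of a fit share an estimate of spread. Differences between responses were tested as interaction terms. CPM are on TMM-scaled library sizes. The scripts were tested on simulated data, and figures were drawn with matplotlib 3.10.9 in Python 3.11.15.

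The members and the other gene lists were chosen with earlier results of these data known. The text names, per comparison, the 5 called members with the largest log2 change (3 for differences between responses), the largest and smallest change within a role, members called against the majority and members not called where most were; per-library values are for genes set per role and for members often among the 5. Of the other pathway genes it names the most changed pair in each list, except for an item that is not reported here. Any further gene was chosen after its values were seen. Alternatives were another normalization (RLE), no count filter, the replicate block, DESeq2 1.42.0, limma 3.58.1 on log2(TPM + 1), a fit of only the compared groups, and leaving out each library; comparisons with the 1-day DMSO control for MAVS-/- cells and between the DMSO groups were added after seeing the data. Libraries of a clone share their origin, which pairs the arms; deviations of same-clone libraries from their group means correlated at 0.026 to 0.0988 (IAA, 4 days), 0.12 to 0.396 (MAVS-/-) and 0.344 to 0.529 (HEK293). The Ku86Flox/- replicates share only a number. Library totals of 9527918 to 45747408 counts left no member at 0; intervals for counting error alone are therefore not given.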

Additional observations from a re-analysis of the deposited data

Results flagged for a closer look

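By an interaction test, the response to 4 days of IAA differed with and without the CDK4/6 inhibitor for 22 of the 45 genes. All 22 were called higher, as were 2.19% of all genes. The difference was largest for MCM2 (1.32 on the log2 scale), MCM7 (1.28) and MCM3 (1.22). The response to IAA differed between MAVS-/- and MAVS-intact clones for 32 genes, where 2.46% of all genes were called higher. It differed most for RRM2 (1.70), PRIM1 (1.67) and TK1 (1.42). In both tests the DMSO control of MAVS-intact clones was collected at 2 days and the other control at 4 days. The genotypes were also compared in different clones, so genotype, clone and time cannot be told apart. The response to 4OHT differed between cells with and without Cre for 43 genes, where 22.4% of all genes were called lower. The largest differences were in POLE2 (-2.93), MCM10 (-2.89) and RRM2 (-2.72). No group held enough libraries for a test of a single outlying library.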

How the results depend on the processing

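Of 2900 recomputed log2 changes of named members, 2642 kept direction and side of the threshold, 128 lost the call, 109 gained it and 21 turned; a sign change with no call under either setting (37 cases) was counted as kept. Of 250 recomputed counts of called members, 209 stayed within 1.5 times. Causes were not tested. Leaving out single libraries gave 10 to 20 members for the inhibitor at 2 days, 15 to 26 at 4 days, 12 to 25 for its interaction with IAA, 5 to 11 for both IAA groups compared, 5 to 16 for IAA at 4 against 2 days, 1 to 9 for 6 against 4 days, 6 to 12 for IAA in MAVS-/-, 2 to 11 without Cre and 2 to 14 in HEK293. Fitting only the compared groups gave 13 members for IAA at 1 day, 2 for 4 against 2 days, 0 for 6 against 4 days, 11 for IAA with the inhibitor at 2 days and 3 for both IAA groups. DESeq2 gave 10 for 6 against 4 days, 7 for IAA with the inhibitor at 2 days and 3 for that interaction; no count filter gave 2 and 3 for the latter pair. Limma on TPM gave 39 for the inhibitor at 2 days, 14 for IAA with the inhibitor at 4 days, 4 in MAVS-/- and 4 without Cre.

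The replicate block, which pairs libraries of a clone, moved the count to 10 for 6 against 4 days (7 up, 3 down), 2 for IAA with the inhibitor at 2 days and 1 for that interaction, and called ORC5 after 4 days of IAA (adjusted p = 0.0369 in edgeR); in HEK293 it gave 15, where 34.8% of all genes were called. With numbers that pair nothing in the Ku86Flox/- cells, it left 9 members without Cre.

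Directions turned for the inhibitor at 2 days with limma on TPM (FEN1 -0.19, MCM7 -0.33, RFC2 -0.53, RPA1 -0.81, RPA2 -0.12) and against 1-day DMSO (FEN1 -0.74, MCM7 -0.76, RFC2 -0.73, RPA1 -0.17, RPA2 -0.32, RPA3 -0.35). They turned for MAVS-/- against intact cells with limma (LIG1 -0.21) and with 1-day DMSO (FEN1 -0.94, LIG1 -0.060, MCM7 -0.85, POLD1 -0.008, RPA1 -0.53, RPA2 -0.79, RPA3 -0.60, TK1 -0.40), and in HEK293 with limma (RRM2 0.095).

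Limma on TPM moved the median of all genes by over 0.1 in 7 comparisons: inhibitor at 2 days (0.05 to -0.355; higher share of calls 60.6% to 22.8%) and 4 days (0.00 to -0.137; 50.0% to 13.4%), 4 against 2 days (0.032 to -0.155; 57.9% to 15.3%), the inhibitor interaction (-0.054 to 0.127; 46.7% to 84.6%), the MAVS interaction (-0.046 to 0.104; 50.7% to 81.1%), the Cre interaction (-0.027 to -0.175; 45.6% to 25.1%) and MAVS-/- against intact cells (0.078 to -0.077; 53.2% to 38.5%). Shares also moved for IAA at 2 days (47.8% to 68.8%), 4 days (54.5% to 41.3%), 6 against 4 days (43.0% to 56.2%), IAA with the inhibitor (54.6% to 80.7%), MAVS-/- (60.01% to 75.9%), Cre (49.0% to 36.9%) and no Cre (53.0% to 72.6%). Calls over all genes when only compared groups were fitted were 1607 instead of 35 (IAA, 1 day), 3892 instead of 6198 (4 days), 264 instead of 1542 (4 against 2 days), 54 instead of 2355 (6 against 4 days), 632 instead of 2496 (both IAA groups), 438 instead of 886 (inhibitor interaction), 775 instead of 1488 (MAVS-/-), 341 instead of 915 (MAVS interaction), 575 instead of 78 (IAA with the inhibitor, 2 days) and 1356 instead of 2292 (no Cre). DESeq2 gave 178 (IAA, 1 day), 301 (IAA with the inhibitor, 2 days), 19 instead of 0 (its interaction), 1377 (inhibitor interaction at 4 days) and 1419 (MAVS interaction). Limma gave 22 (IAA, 1 day), 2561 (4 against 2 days), 38 (IAA with the inhibitor, 2 days), 1 (its interaction), 1472 (inhibitor interaction), 574 (no Cre) and 2154 instead of 3426 (HEK293). The block gave 107 (IAA, 1 day), 165 (IAA with the inhibitor, 2 days), 4 (interaction at 2 days) and 5404 (HEK293), no count filter gave 127, 250 and 65 for the first 3 of these, and 1-day DMSO 686 instead of 6494 (inhibitor, 2 days).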
